A study of Homo sapiens with 18 samples.

Results

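T15-2 cells kept with erlotinib were compared with ER3 cells kept with erlotinib, gene by gene, over every probe that rose above background. The members are the 3 T15-2 erlotinib arrays and the 3 ER3 erlotinib arrays, 6 of the 18 arrays of the series. T15-2 and ER3 are both erlotinib-resistant sublines of HCC827, a human cell line of non-small cell lung cancer that carries an activating EGFR mutation. Before RNA was taken, all cells were starved overnight and then exposed for 12 h to 1 µM erlotinib, an inhibitor of the EGFR kinase, or to its solvent DMSO. The 4 groups compared by tests are T15-2 with erlotinib, ER3 with erlotinib, T15-2 with DMSO and ER3 with DMSO, with 3 arrays each. HCC827 with erlotinib (3 arrays) is quoted for its levels alone, with no test. HCC827 with DMSO (3 arrays) is quoted in the same way for MET and CCND1. All 18 arrays entered the estimate of the spread. HCC827 levels are those with erlotinib unless DMSO is named. Each resistant state is represented by a single subline, and the labels give neither how it was selected nor whether it is 1 clone. Whether replicate samples were grown as separate cultures is not stated either: the p-values therefore cover only the spread among the samples at hand, and the number of arrays limits the precision.

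Each sample was hybridised to an Illumina BeadChip, a one-colour array read as bead brightness per probe. Of 48803 probes, between 16936 and 17461 lay above background on a T15-2 erlotinib array and between 16832 and 17258 on an ER3 erlotinib array, at a detection p below 0.05. Across genes, arrays of 1 group correlated at 0.992 to 0.997 in T15-2 and at 0.993 to 0.995 in ER3. Within groups, 1 principal component held 24.5% of the spread, and replicate 3 of T15-2 with erlotinib (score -0.457) and replicate 2 of ER3 in DMSO (score 0.519) lay at its ends, so counts without each are given below. Of 12 markers of lung adenocarcinoma epithelium, 11 were above background on all 3 arrays in T15-2 and 11 in ER3, with CEACAM5 on none in either. The summed level of that list was 20600 to 21680 in T15-2, against 32150 to 38080 in ER3, in normalised intensity. Of 23 lymphocyte and NK cell markers, 18 were above background on no T15-2 array and 14 on no ER3 array, among them PTPRC, CD3D, CD3E and CD3G in both sublines. The fibroblast collagens COL1A1, COL1A2 and COL3A1 were also above background on no array of either.

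Mutant EGFR keeps lung cancer cells growing through the MAPK and PI3K pathways, and erlotinib switches this signal off. Resistant cells are known to pass the block in several ways, among them through another receptor tyrosine kinase such as MET or AXL, the receptor of the ligand GAS6, or through a shift from epithelial towards mesenchymal character. Epithelial cells hold together through E-cadherin, claudins and desmosomes, and the transcription factors OVOL2 and GRHL2 are known to keep this program on, while ZEB and SNAI factors turn it off by binding E-box sequences. Interferon-stimulated genes, which act against viruses, are switched on by STAT and IRF9 complexes that bind a sequence called the interferon-stimulated response element.

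The largest differences between the sublines were lower signals in T15-2. At a Benjamini-Hochberg adjusted p below 0.05 in limma, 3238 of 11820 genes (27.4%) differed, 1733 of them higher in T15-2 (14.7%) and 1505 lower (12.7%). At least 2-fold differences were found for 259 genes (2.19%), of which 91 were higher (0.77%) and 168 lower (1.42%). Of 31 genes that differed at least 4-fold, 6 were higher and 25 lower. The 3 values of T15-2 did not overlap those of ER3 for 4737 genes (40.1%), and 3124 genes (26.4%) were both called and free of overlap. The median difference over all genes was 0.02 on the log2 scale. Without replicate 3 of T15-2, 1427 genes were called higher and 1307 lower, and 257 of the 259 genes at 2-fold kept their call in each of the 6 fits that left out 1 erlotinib array. Differences below are T15-2 minus ER3 on the log2 scale with their standard error (SE), n = 3 arrays per group, with limma's adjusted p.

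AXL, the receptor tyrosine kinase that GAS6 activates, differed most among the receptors. Its signal was 7.00, 6.96 and 7.20 on the T15-2 arrays, against 10.84, 10.62 and 10.25 on the ER3 arrays (log2). The groups lay far apart, and the 3 HCC827 arrays, at 7.09 to 7.20, lay at the level of T15-2. The difference was -3.52 ± 0.17 (SE), or 11.4-fold lower in T15-2 (adjusted p = 1.14e-11, limma), and a second AXL probe gave -3.32. A lower signal can come from fewer cells with the transcript or from less of it per cell, which these arrays cannot tell apart.

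Other receptors and ligands differed less. GAS6, the ligand of AXL, read 7.59, 7.65 and 7.71 in T15-2, against 7.96, 8.02 and 8.11 in ER3, a small difference without overlap (-0.38 ± 0.09, adjusted p = 0.00264), with its other probes at -0.28 and -0.05. PROS1, another ligand of the AXL family, was higher in T15-2 (0.54 ± 0.11, adjusted p = 0.00117), and MERTK, a sister receptor, was lower (-0.38 ± 0.09, adjusted p = 0.00353; -0.11 on its second probe). ERBB3, the partner through which EGFR-family receptors reach PI3K, read 6.91, 6.98 and 7.07 in T15-2, against 8.75, 9.20 and 9.03 in ER3. This is a difference of -2.01 ± 0.13 (adjusted p = 8.34e-10), while its 2 other probes gave -0.31 and -0.18, so its size rests on 1 probe. DDR1, a collagen receptor, was 3.44-fold lower in T15-2 (-1.78 ± 0.14, adjusted p = 1.5e-08). MST1R, the receptor of macrophage-stimulating protein, was above background on no T15-2 array and at least 1.47-fold lower there (adjusted p = 5.73e-05). Such a bound sets the mean of the brighter subline against, per array of the dimmer, the brighter of 2 values, its own signal and the dimmest signal detected there.

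EGFR itself read 12.68, 12.61 and 12.35 in T15-2, against 13.13, 12.85 and 13.00 in ER3. The groups did not overlap, and the difference was -0.45 ± 0.11 (adjusted p = 0.00595), with the 3 other EGFR probes between -0.72 and -0.25. MET, whose amplification is a known route of resistance, read 8.53, 8.58 and 7.92 in T15-2, against 8.44, 8.06 and 8.61 in ER3. These groups overlapped and did not differ by the test (-0.03 ± 0.23, adjusted p = 0.945). The HCC827 arrays with erlotinib lay lower, at 5.55 to 6.24, while HCC827 with DMSO read 7.88, 7.52 and 7.54. In DMSO, T15-2 averaged 7.97 and ER3 averaged 7.73. ERBB2, a further EGFR-family receptor, did not pass the test either (-0.08 ± 0.16, adjusted p = 0.771). Of 19 receptor tyrosine kinases and AXL ligands measured, 1 was higher and 8 lower in T15-2, against 14.7% and 12.7% of all genes. The median of the list was -0.14. Of 5 EGFR ligands measured, 0 were called.

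**Figure D1:**
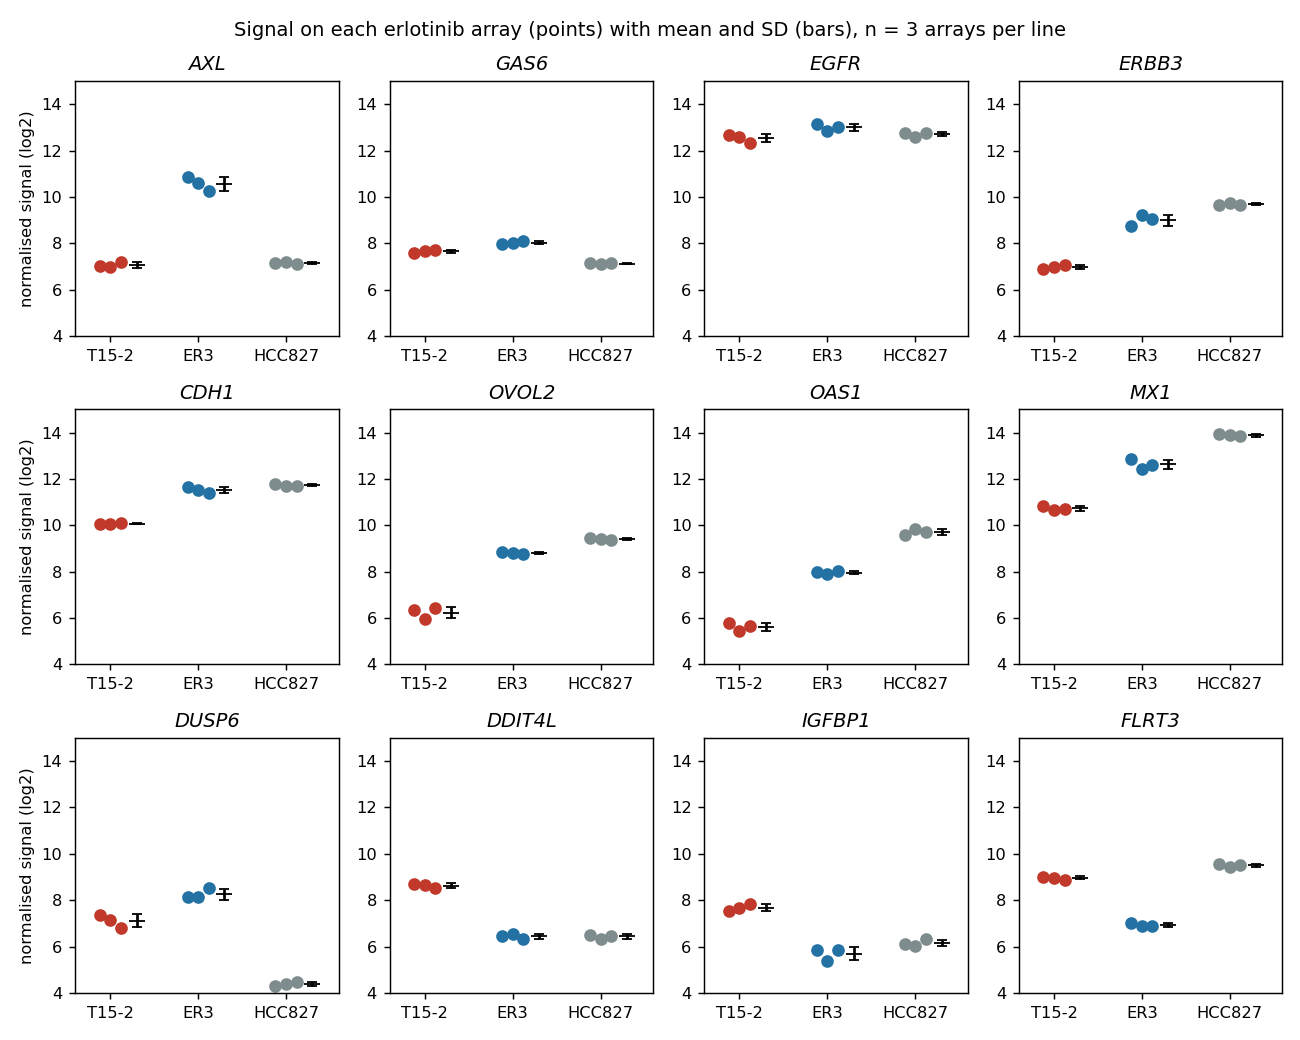
Normalised signal (log2, y axis) of 12 genes on each erlotinib array, with points for arrays and bars for mean and SD of 3 arrays, in T15-2, ER3 and HCC827. AXL sits near 7 in T15-2 and HCC827 and above 10 in ER3, while EGFR lies close together in all lines.

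The called epithelial genes were lower in T15-2. Of 31 epithelial markers measured, 0 were higher, 9 were not called and 22 were lower in T15-2, 14 of them at least 2-fold, with a median of -0.79, against 14.7% higher and 12.7% lower over all genes. CDH1, which encodes E-cadherin, read 10.05, 10.08 and 10.10 in T15-2, against 11.64, 11.53 and 11.39 in ER3. The groups were well separated, with HCC827 near ER3 at 11.72 to 11.77, and the difference was -1.44 ± 0.09 (adjusted p = 2.02e-10). OVOL2, a transcription factor that represses ZEB genes, read 6.33, 5.96 and 6.42 in T15-2, against 8.84, 8.80 and 8.76 in ER3. It was the epithelial marker with the largest difference (-2.56 ± 0.11, 5.91-fold lower, adjusted p = 2.41e-12). GRHL2, a second transcription factor of the epithelial program, was lower by -1.46 ± 0.16 (adjusted p = 1.53e-06).

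Surface proteases and their inhibitors were part of this group. The membrane serine proteases PRSS8 (-2.45 ± 0.12) and ST14 (-2.11 ± 0.14) were lower in T15-2, as were SPINT1, which encodes their inhibitor (-2.02 ± 0.10), and SPINT2 (-0.79). MAL2, which carries proteins to the apical membrane, was 4.67-fold lower (-2.22 ± 0.10), and ESRP1, the splicing factor of epithelial isoforms, was lower by -1.68 ± 0.12 with a signal above background on 1 of 3 T15-2 arrays. The adhesion protein EPCAM read 10.96, 10.80 and 10.26 in T15-2, against 12.08, 11.73 and 12.25 in ER3 (-1.34 ± 0.20, adjusted p = 5.67e-05). Tight junction genes were split: CLDN7 was lower by -1.70 ± 0.11 (adjusted p = 9.58e-10), while CLDN3 (0.11 ± 0.10, adjusted p = 0.466), CLDN4 (0.30) and TJP1 (0.13) did not pass the test.

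The promoters of MUC1, an epithelial mucin that was lower in T15-2, and CLDN3, which was not called, are shown because both hold the E-box CAGGTG that ZEB and SNAI factors are known to bind. Each is a RefSeq window of 300 bases around the annotated start of the gene (build GRCh38.p14), written on the strand of the gene, with the E-box in capitals; CACCTG is the same motif on the other strand. MUC1 lies at chr1:155192866-155193165 (minus strand) and CLDN3 at chr7:73770221-73770520 (minus strand).
MUC1: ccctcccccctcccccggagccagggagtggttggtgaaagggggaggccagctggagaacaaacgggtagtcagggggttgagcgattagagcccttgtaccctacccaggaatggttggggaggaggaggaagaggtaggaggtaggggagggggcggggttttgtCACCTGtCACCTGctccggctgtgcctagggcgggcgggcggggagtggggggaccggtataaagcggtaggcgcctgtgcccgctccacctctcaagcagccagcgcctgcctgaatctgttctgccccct
CLDN3: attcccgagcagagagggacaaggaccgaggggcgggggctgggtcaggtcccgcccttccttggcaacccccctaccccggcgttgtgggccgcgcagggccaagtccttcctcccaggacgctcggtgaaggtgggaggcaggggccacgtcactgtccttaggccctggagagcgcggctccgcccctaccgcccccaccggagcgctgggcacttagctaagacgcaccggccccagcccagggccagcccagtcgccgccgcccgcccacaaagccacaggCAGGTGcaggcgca
MUC1 read 8.66, 8.65 and 8.53 in T15-2, against 9.89, 9.79 and 9.82 in ER3, a difference of -1.22 ± 0.10 (adjusted p = 1.32e-08), with its other probes at -1.05 and -0.49. CLDN3 read 8.99, 8.86 and 9.00 in T15-2, against 8.87, 8.92 and 8.72 in ER3. CAGGTG, searched on both strands with overlapping matches allowed, was found in 7 of 14 epithelial promoters present in the table (50%): 5 of the 9 whose genes were lower in T15-2 (55.6%) and 2 of the 5 that were not (40%). Over all 27305 promoters of that length the share was 20.6% and over the genes tested 18.6%. It was 20.7% over the genes lower in T15-2 and 16.2% over those higher in T15-2. A match is a description of these letters and not a bound site.

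Mesenchymal genes were called at 25%, near the 27.4% of all genes, and the called members went both ways. The list held 30 genes, of which 14 were not measured, against 5 of 36 on the epithelial list. Of 16 measured, 2 were higher and 2 were lower in T15-2, with a median of 0.01. Without ER3 erlotinib replicate 1 the count of higher members was 4. VIM, the intermediate filament gene vimentin, read 13.30, 13.36 and 13.20 in T15-2, against 13.27, 12.97 and 12.97 in ER3, with overlap (0.22 ± 0.09, adjusted p = 0.0872). Median scaling in place of quantile normalization gave VIM 0.35 with an adjusted p of 0.0061. ZEB2, a repressor of CDH1, read 6.03, 5.99 and 5.89 in T15-2, against 4.99, 5.32 and 5.00 in ER3, without overlap (0.87 ± 0.13, adjusted p = 5.08e-05). Its relative ZEB1 did not pass the test (0.12 ± 0.13, adjusted p = 0.575). ACTA2, smooth muscle actin, was higher (0.66 ± 0.09, adjusted p = 2.15e-05), and SNAI2, another repressor of epithelial genes, was lower in T15-2 (-0.64 ± 0.12, adjusted p = 0.000835). S100A4, a calcium-binding protein often used as a mesenchymal marker, was also lower (-1.18 ± 0.15, adjusted p = 9.69e-06).

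The called members of the keratin list and of the list of mucins and CEACAM adhesion molecules were lower in T15-2. Shares over all genes were 14.7% higher and 12.7% lower. Of 10 keratins measured, 0 were higher and 5 were lower in T15-2, with a median of -0.33: KRT7 (-1.02 ± 0.09), KRT19 (-0.55 ± 0.11), KRT8 (-0.53 ± 0.09), KRT15 (-0.53 ± 0.10) and KRT18 (-0.42 ± 0.14). KRT18 gave -0.15 on its second probe, and its call was lost without erlotinib replicate 1 or 2 of either subline. Of 9 CEACAM, mucin and trefoil genes, 0 were higher and 6 were lower, with a median of -0.85. CEACAM6 read 8.78, 8.63 and 8.46 in T15-2, against 10.72, 10.79 and 10.89 in ER3, and 12.77 on each HCC827 array. The sublines were far apart, at -2.18 ± 0.10 (adjusted p = 3.25e-12). Lung alveolar genes went both ways, with 3 higher and 6 lower of 16. HOPX, a homeodomain protein of alveolar type I cells, was lower by -1.94 ± 0.14 and above background on 2 of 3 T15-2 arrays, and LAMP3, a lysosomal protein of type II cells, was at least 3.6-fold lower on 1 probe and lower by -0.50 on its second. ABCA3 (1.29 ± 0.13) and LPCAT1 (1.22 ± 0.11), which transport and make surfactant lipids, were higher in T15-2. NKX2-1, the transcription factor of lung lineage, did not pass the test (0.18 ± 0.10, adjusted p = 0.204).

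Interferon-stimulated genes, too, were lower in T15-2 where they were called. Of 35 measured, 0 were higher and 25 (13 at least 2-fold) lower in T15-2, against 14.7% and 12.7% of all genes. The median of the list was -0.59. The promoters of MX1 and OAS3, which were lower, and of IFITM3, which was not called, are shown because all hold a pair of GAAA half-sites with 2 bases between them, the core of the interferon-stimulated response element. They are RefSeq windows of the same length and build, on the strand of the gene, with the motif in capitals. MX1 lies at chr21:41420308-41420607 (plus strand), OAS3 at chr12:112938224-112938523 (plus strand) and IFITM3 at chr11:320811-321110 (minus strand).
MX1: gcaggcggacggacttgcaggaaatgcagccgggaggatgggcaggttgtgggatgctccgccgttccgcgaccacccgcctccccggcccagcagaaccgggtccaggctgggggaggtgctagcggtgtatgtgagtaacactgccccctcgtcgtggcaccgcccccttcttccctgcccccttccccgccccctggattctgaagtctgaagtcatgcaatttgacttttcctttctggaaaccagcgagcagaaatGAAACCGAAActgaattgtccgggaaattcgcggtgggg
OAS3: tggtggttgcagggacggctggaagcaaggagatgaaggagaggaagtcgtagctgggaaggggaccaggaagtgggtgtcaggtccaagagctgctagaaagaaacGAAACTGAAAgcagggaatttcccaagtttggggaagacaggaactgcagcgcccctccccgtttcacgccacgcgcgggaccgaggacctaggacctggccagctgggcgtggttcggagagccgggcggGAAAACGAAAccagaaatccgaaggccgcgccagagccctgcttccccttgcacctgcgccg
IFITM3: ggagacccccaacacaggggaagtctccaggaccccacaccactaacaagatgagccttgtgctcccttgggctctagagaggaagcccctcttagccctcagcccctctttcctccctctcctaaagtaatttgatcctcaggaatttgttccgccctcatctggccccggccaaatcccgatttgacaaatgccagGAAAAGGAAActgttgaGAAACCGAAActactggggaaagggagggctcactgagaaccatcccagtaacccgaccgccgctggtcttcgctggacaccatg
The motif, searched on both strands with overlapping matches allowed, stood in 20 of 29 interferon promoters present in the table (69%): 14 of the 21 whose genes were lower in T15-2 (66.7%) and 6 of the 8 that were not (75%). Over all 27305 promoters the share was 3.65%, over the genes tested 2.85%, over the genes lower in T15-2 4.75% and over those higher 1.81%.

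MX1, a GTPase that blocks influenza virus, read 10.85, 10.67 and 10.70 in T15-2, against 12.85, 12.43 and 12.61 in ER3. The HCC827 arrays were higher than both, at 13.84 to 13.95, and T15-2 lay below ER3 by -1.89 ± 0.10 (adjusted p = 3.63e-11). OAS1 and OAS2, oligoadenylate synthetases that activate RNase L upon viral RNA, showed the largest differences of the list. OAS1 read 5.77, 5.44 and 5.66 in T15-2, against 7.99, 7.89 and 8.01 in ER3 (-2.34 ± 0.13, adjusted p = 1.06e-10), and its 2 other probes gave -1.83 and -1.76. OAS2 was lower by -2.23 ± 0.10, with its 3 other probes between -1.48 and -0.71. OAS3, another such enzyme, read 6.86, 6.82 and 6.57 in T15-2, against 8.39, 8.42 and 8.70 in ER3, by -1.75 ± 0.13 on this probe and by -0.20 on its second probe. IRF9, the DNA-binding subunit of the interferon complex, was lower 2.01-fold (adjusted p = 2.26e-07), and IRF7, an amplifier of the response, 2.09-fold (adjusted p = 9.38e-08), though 1 of its 2 other probes gave -0.04. IFITM3, a membrane protein that blocks virus entry, read 11.87, 11.84 and 11.97 in T15-2, against 11.03, 11.84 and 11.87 in ER3, with overlap (0.31 ± 0.15, adjusted p = 0.154), and was called higher without ER3 erlotinib replicate 3 (0.46, adjusted p = 0.0485). IFIT2 (-0.14) and IRF1 (0.08) did not pass the test.

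The called genes of MHC class I antigen presentation were lower in T15-2, none by 2-fold. Of 16 measured, 0 were higher and 10 lower, against 14.7% and 12.7% of all genes, and 6 were not called. The median of the list was -0.46. HLA-B, a peptide-presenting heavy chain, read 7.82, 7.67 and 8.03 in T15-2, against 8.73, 8.67 and 8.81 in ER3 (-0.90 ± 0.10, adjusted p = 2.49e-06). HLA genes resemble each other closely, so 1 probe may take up signal of several. The peptide transporter genes TAP1 (-0.74 ± 0.10) and TAP2 (-0.76 ± 0.09) were lower, while the light chain gene B2M was not called (-0.05 ± 0.08, adjusted p = 0.75). All 10 called members lie on chromosome 6, where 41.4% of all genes tested were lower in T15-2; the part of that shift in this result was not tested.

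**Figure D2:**
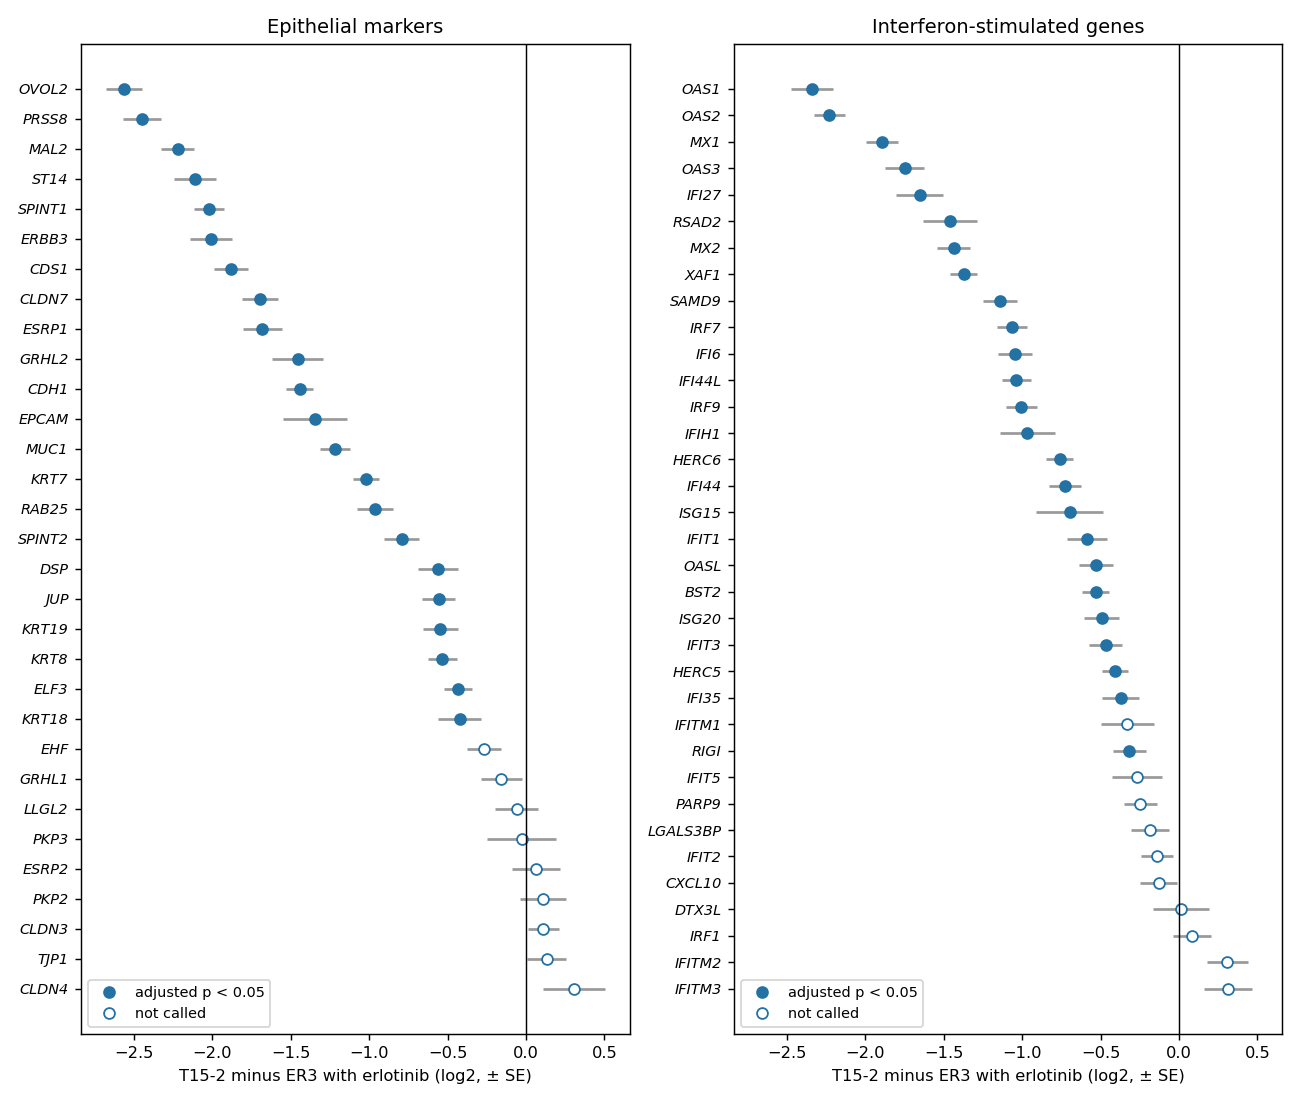
Difference T15-2 minus ER3 with erlotinib (log2, x axis) for the 31 epithelial markers and 35 interferon-stimulated genes measured, with bars for SE; filled points are called in limma and open points are not. Every called member of both lists lies below 0, from OVOL2 at -2.56 and OAS1 at -2.34 upwards.

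Among genes that report the activity of the MAPK pathway, most called members were lower in T15-2. Of 24 measured, 1 was higher and 15 were lower, against 14.7% and 12.7% of all genes, and the median of the list was -0.51. DUSP6, the phosphatase that ERK induces against itself, read 7.37, 7.15 and 6.81 in T15-2, against 8.12, 8.14 and 8.54 in ER3. The sublines did not overlap (-1.15 ± 0.20, adjusted p = 0.000207), a second probe gave -1.38, and DUSP6 was above background on no HCC827 array with erlotinib. EGR1, an immediate early transcription factor, read 5.11, 5.28 and 4.94 in T15-2, against 6.00, 6.33 and 6.37 in ER3 (-1.12 ± 0.14, adjusted p = 7.66e-06). DUSP5, another ERK phosphatase, was lower by -1.44 ± 0.12, and FOSL1, a member of the AP-1 factor, by -0.85 ± 0.13. CCND1, the cyclin of the G1 phase, read 12.02, 11.99 and 12.11 in T15-2, against 12.82, 12.64 and 12.56 in ER3 (-0.64 ± 0.09, adjusted p = 1.65e-05). HCC827 lay at 9.59 to 9.62 with erlotinib and at 12.71 to 12.88 with DMSO. SPRY2 (-0.03), FOS (0.13) and MYC (0.24 ± 0.10, adjusted p = 0.0907) did not pass the test, and EPHA4 was the member called higher (0.48 ± 0.10).

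Genes of the cell cycle lists went both ways. Called members made up 32.3% of DNA replication, 21.2% of mitosis and 29.2% of ribosome biogenesis genes. Across all genes tested the share was 27.4%, with 14.7% higher and 12.7% lower. CDKN1A, the p21 inhibitor of cyclin-dependent kinases, read 5.86, 6.02 and 5.93 in T15-2, against 7.99, 7.58 and 7.60 in ER3, without overlap (-1.79 ± 0.12, adjusted p = 6.19e-10). It was the member called among 6 such inhibitors (16.7%). Of 31 DNA replication genes, 10 were higher and 0 were lower in T15-2, with a median of 0.18; the largest were GINS2 (0.75 ± 0.10), a part of the replicative helicase, and POLA1 (0.62 ± 0.11), the primase-linked polymerase. In DMSO, 24 of the same 31 were higher in T15-2 with a median of 0.56, while the difference between treatments was called for 0 of them. Of 33 mitosis genes, 2 were higher and 5 were lower, with 0 to 2 higher and 3 to 6 lower when an array was left out. Of 24 ribosome biogenesis genes, 6 were higher and 1 was lower (0 or 1 when an array was left out), led by PES1 (0.70 ± 0.18) and the rRNA methyltransferase FBL (0.67 ± 0.09). Among BCL2 family genes, BMF, a killer protein of that family, was lower in T15-2 (-0.90 ± 0.13, with its other probes between -0.91 and -0.27), and BCL2L11, which encodes BIM, did not pass the test (-0.29 ± 0.15, adjusted p = 0.196).

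**Figure D3:**
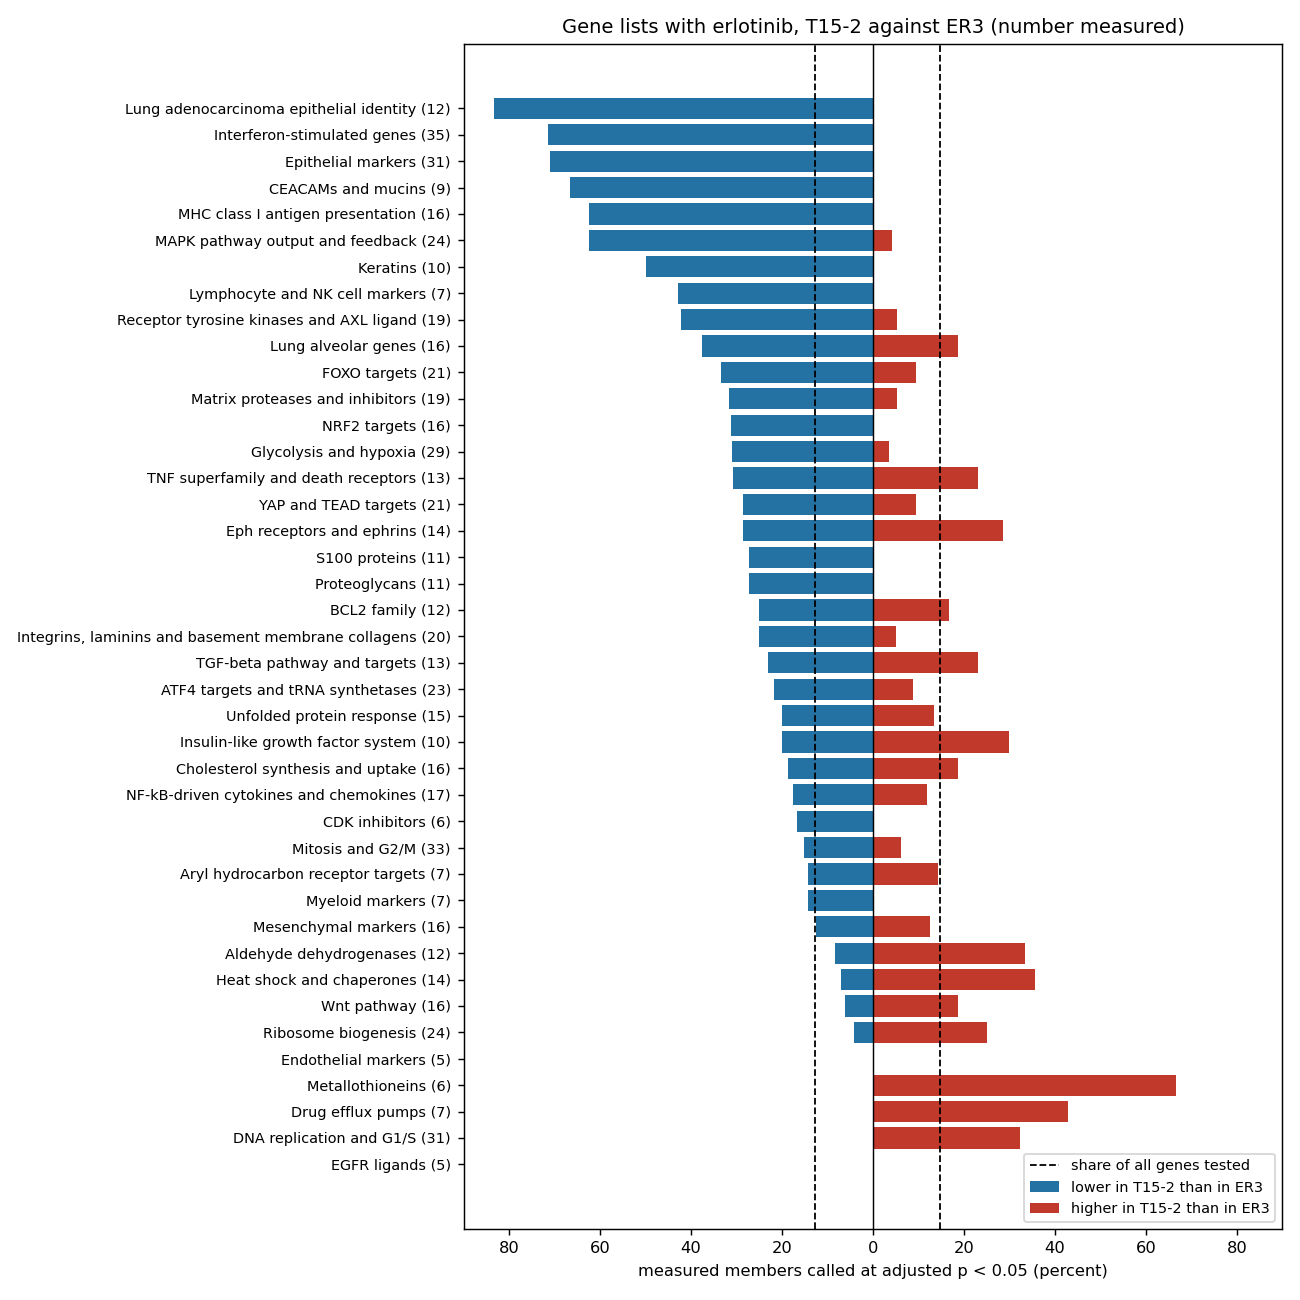
Share of measured members called higher (right) or lower (left) in T15-2 than in ER3 with erlotinib (percent, x axis), for the lists with at least 5 members measured (number in brackets); dashed lines give the share over all genes. The longest bars on the left belong to lung epithelial identity, interferon-stimulated and epithelial genes, and on the right to metallothioneins. Lists share members, such as CDH1, MUC1 and CEACAM6.

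On the higher side, the largest differences were about 4-fold. DDIT4L, a stress-induced inhibitor of mTOR signalling, read 8.72, 8.64 and 8.52 in T15-2, against 6.44, 6.56 and 6.33 in ER3, with HCC827 at 6.32 to 6.52. This was the largest difference on the higher side (2.18 ± 0.10, 4.54-fold, adjusted p = 3.25e-12). RRAGD, a GTPase that links amino acids to mTOR, was higher by 2.08 ± 0.12, and PKIA, an inhibitor of protein kinase A, by 2.05 ± 0.12, with 1.14 on its second probe. FLRT3, a cell adhesion protein that binds latrophilins, read 9.02, 8.98 and 8.89 in T15-2, against 7.00, 6.91 and 6.88 in ER3, and 9.45 to 9.58 in HCC827. Its groups were tightly spaced (2.03 ± 0.08, adjusted p = 6.1e-13). TSPAN8, a tetraspanin, differed by 2.09 ± 0.13 and ZNF704, a zinc finger protein, by 2.00 ± 0.10 with 0.51 on its second probe. The nuclear receptor NR5A2 (1.78 ± 0.10, with 0.46 and 1.85 on its other probes) and RFTN1, a lipid raft protein (1.72 ± 0.11), followed. PLAAT1, a phospholipid-metabolising enzyme, was above background on no ER3 array and at least 2.66-fold higher in T15-2, and MAOA, monoamine oxidase A, was at least 2.55-fold higher.

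Secreted and matrix genes were among them too. The basement membrane genes FBLN1 and LAMC3 were higher in T15-2 by 1.82 ± 0.12 and 1.71 ± 0.18, though the other FBLN1 probes gave 0.12 and 0.79. SRPX, a sushi-domain protein, was higher by 1.97 ± 0.11 and above background on 1 of 3 ER3 arrays. IGFBP1, which binds insulin-like growth factors, read 7.54, 7.67 and 7.82 in T15-2, against 5.85, 5.38 and 5.86 in ER3 (1.98 ± 0.15, adjusted p = 9.22e-09). IGFBP2 was above background on no ER3 array and at least 2.3-fold higher in T15-2, IGFBP3 was higher by 0.61 ± 0.11, and IGFBP4 was lower by -0.84 ± 0.13. Over the insulin-like growth factor system, 3 of 10 were higher and 2 were lower, against 14.7% and 12.7% of all genes. The lower count was 1 or 2 when an array was left out.

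Of 6 metallothioneins, small metal-binding proteins, 4 were higher in T15-2 and 0 were lower, against 14.7% and 12.7% of all genes. The median of the list was 0.62. MT1F read 7.89, 8.31 and 8.19 in T15-2, against 6.47, 6.98 and 7.45 in ER3 (1.17 ± 0.18, adjusted p = 8.88e-05). MT1X read 10.12, 10.28 and 10.37 in T15-2, against 8.36, 9.52 and 9.83 in ER3, where replicate 1 was the low array (1.02 ± 0.27, adjusted p = 0.00847). Without that ER3 array MT1X differed by 0.58 with an adjusted p of 0.0583, and 2 metallothioneins were called higher with a median of 0.40. Metallothionein genes are near-identical, so their probes may share signal. Of 7 drug efflux pumps, 3 were higher and 0 were lower: ABCC4 (0.89 ± 0.11), ABCA1 (0.89 ± 0.12) and ABCC3 (0.31 ± 0.09), which lost its call without erlotinib replicate 3 of either subline. ABCB1, the pump P-glycoprotein, read 7.82, 8.07 and 8.06 in T15-2, against 8.25, 8.23 and 8.01 in ER3, with overlap (-0.18 ± 0.14, adjusted p = 0.387). CYP1A1, a cytochrome known to metabolise erlotinib, did not pass the test (-0.25 ± 0.16, adjusted p = 0.273).

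On the lower side, LUM differed most of all genes. It encodes lumican, a proteoglycan of collagen-rich matrix, and read 5.78, 5.79 and 5.58 in T15-2, against 9.77, 9.34 and 9.30 in ER3 (-3.76 ± 0.12, 13.5-fold lower, adjusted p = 2.14e-14). A second LUM probe gave -0.56. The summed fibroblast list that holds LUM was 295.6 to 310.9 in T15-2, against 883.5 to 1115 in ER3, with the collagens at background as stated above. PLAC8, a cysteine-rich protein, read 7.05, 7.10 and 7.08 in T15-2, against 10.26, 10.40 and 10.52 in ER3 (-3.32 ± 0.09, adjusted p = 1.21e-15), and its second probe gave -3.21. DNAAF11, a dynein assembly factor of cilia, was lower by -3.39 ± 0.11, ADGRF1, an adhesion receptor, by -3.12 ± 0.11, and MAPK13, the delta form of p38 kinase, by -2.85 ± 0.11. SCNN1A, the alpha subunit of the epithelial sodium channel, was lower by -2.26 ± 0.09. PMP2, a lipid-binding protein of myelin, was at least 4.44-fold lower in T15-2.

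APOBEC3G, a cytidine deaminase of lymphocytes that restricts retroviruses, read 4.50 to 4.63 in T15-2, above background on no array, against 7.62, 7.54 and 7.74 in ER3. It was at least 6.88-fold lower in T15-2 (adjusted p = 4.17e-14). KLRC3, an NK cell receptor (-0.91 ± 0.10), and CST7, a cystatin of cytotoxic cells (-0.53 ± 0.11), were the other called members of the lymphocyte list. In all, 3 of 7 measured were called (42.9%), against 27.4% of all genes. The summed level of that list was 1160 to 1203 in T15-2, against 1705 to 1818 in ER3, with the defining genes PTPRC and CD3D at background in both.

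The lists of glycolysis and hypoxia genes, matrix proteases and YAP targets had 34.5%, 36.8% and 38.1% of their measured members called in either direction, against 27.4% of all genes. Of 29 glycolysis and hypoxia genes, 1 was higher and 9 were lower in T15-2, with a median of -0.18. SLC2A3, a glucose transporter, read 7.49, 7.26 and 7.54 in T15-2, against 9.27, 9.22 and 9.16 in ER3 (-1.79 ± 0.10, adjusted p = 1.11e-10). The angiogenic factor VEGFA was lower by -1.64 ± 0.11 and the peptide hormone ADM by -1.61 ± 0.10, while the enzymes PGK1 (-0.07) and LDHA (-0.24) did not pass the test. Of 19 matrix proteases and inhibitors, 1 was higher (0 to 2 when an array was left out) and 6 were lower. PLAUR, the urokinase receptor, was lower by -1.46 ± 0.11 (-1.24 and -0.54 on its other probes), its protease PLAU by -0.95 ± 0.10 and the collagenase MMP13 by -1.38 ± 0.13. Of 21 YAP and TEAD targets, 2 were higher and 6 were lower, with a median of -0.13, AXL among them. The matricellular gene CCN1 (-0.93 ± 0.11) and the clotting initiator F3 (-1.17 ± 0.13) were lower, as was CCN2, at 9.17, 8.94 and 8.79 in T15-2 against 10.15, 9.75 and 10.00 in ER3 (adjusted p = 8.09e-06), while ANKRD1 narrowly missed the threshold (-0.38, adjusted p = 0.0517) and was called without ER3 erlotinib replicate 1 (-0.57, adjusted p = 0.00342), without T15-2 erlotinib replicate 2 and under several other processing settings. NKD2, a Wnt antagonist, was lower by -1.43 ± 0.09, and TRAF5, an adaptor of TNF receptors, by -1.48 ± 0.11.

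The same sublines were also compared in DMSO. With erlotinib 3238 genes were called and in DMSO 3728 (31.5%), 1991 of them higher in T15-2 (16.8%) and 1737 lower (14.7%), with 279 at least 2-fold (2.36%); without ER3 DMSO replicate 2, 3361 were called in DMSO. Of these genes 2346 were called in the same direction under both, which is 72.5% of the erlotinib calls and 62.9% of the DMSO calls; 3 were called in opposite directions. The arrays of these comparisons differ, but all 4 groups share 1 estimate of the spread per gene. Of the 259 genes at 2-fold with erlotinib, 253 were called the same way in DMSO and 6 were not called there. AXL differed by -3.52 with erlotinib and by -3.50 in DMSO, CDH1 by -1.44 and -1.67, MX1 by -1.89 and -1.79, and DDIT4L by 2.18 and 2.04. For epithelial markers, 0 were higher and 22 lower with erlotinib and 0 higher and 23 lower in DMSO. Interferon-stimulated genes had 0 higher and 25 lower with erlotinib, and 1 higher and 25 lower in DMSO. Other lists differed more between these counts: glycolysis and hypoxia genes had 1 higher and 9 lower with erlotinib (median -0.18), and 7 higher and 7 lower in DMSO (median 0.01), with 0 called for the change itself.

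The difference between sublines itself changed with treatment for 4 genes (0.0338%), each lower in T15-2 by more with erlotinib than in DMSO. At an unadjusted p below 0.05 there were 900 such genes. PTGS2, the inducible cyclooxygenase, read 9.18, 9.23 and 9.12 in T15-2 with erlotinib, against 10.71, 10.43 and 10.76 in ER3. In DMSO it read 8.94, 9.10 and 9.08 in T15-2, against 9.48, 9.69 and 9.68 in ER3. The sublines were apart under both treatments, by -1.46 with erlotinib and by -0.57 in DMSO, and these differed by -0.89 ± 0.14 (adjusted p = 0.019, limma).

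ITGA2, a collagen-binding integrin chain, read 6.81, 7.03 and 7.12 in T15-2 with erlotinib, against 8.40, 8.41 and 8.39 in ER3. It differed by -1.41 with erlotinib and by -0.65 in DMSO, and the change between treatments was -0.76 ± 0.13 (adjusted p = 0.0384). TCP11L2, whose role is not well described, read 4.92, 5.02 and 5.19 in T15-2 with erlotinib, against 6.25, 6.14 and 6.36 in ER3, and in DMSO the sublines overlapped (-1.20 with erlotinib, -0.14 in DMSO). In DMSO it was above background on 1 of 3 arrays in each subline, so its change rests on values near background, and its second probe gave -0.71 with erlotinib. KRT16P2, a keratin 16 pseudogene, read 7.41, 7.42 and 7.61 in T15-2 with erlotinib, against 10.98, 10.87 and 10.63 in ER3, and differed by -3.34 with erlotinib and by -2.33 in DMSO. Pseudogene probes may take up KRT16 transcript, and the KRT16 probe itself, above background on 2 of 3 arrays in each subline, differed by 0.02. These 4 calls depended on single arrays, and none of the 4 was called without replicate 1 of either subline with erlotinib, replicate 2 or 3 of T15-2 in DMSO, or replicate 1 of ER3 in DMSO. Without ER3 erlotinib replicate 3, 1 of them (KRT16P2) was called, and without T15-2 erlotinib replicate 2, 2 of them (KRT16P2 and PTGS2). Without ER3 DMSO replicate 2, KRT16P2, PTGS2 and TCP11L2 were called.

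DUSP6 and EGR1 differed between sublines with erlotinib and not by the test in DMSO, and this change was not called with all arrays. Without ER3 DMSO replicate 3, EGR1 was among the 14 genes with a called change, and DUSP6 was not. DUSP6 read 7.74, 7.90 and 7.70 in T15-2 with DMSO, against 7.89, 8.63 and 7.60 in ER3 (-0.26, adjusted p = 0.356), and the change between treatments was -0.90 ± 0.28 (adjusted p = 0.347). EGR1 read 6.70, 6.60 and 6.77 in T15-2 with DMSO, against 6.62, 6.71 and 7.09 in ER3 (-0.12, adjusted p = 0.585), with a change of -1.01 ± 0.20 (adjusted p = 0.115).

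**Figure D4:**
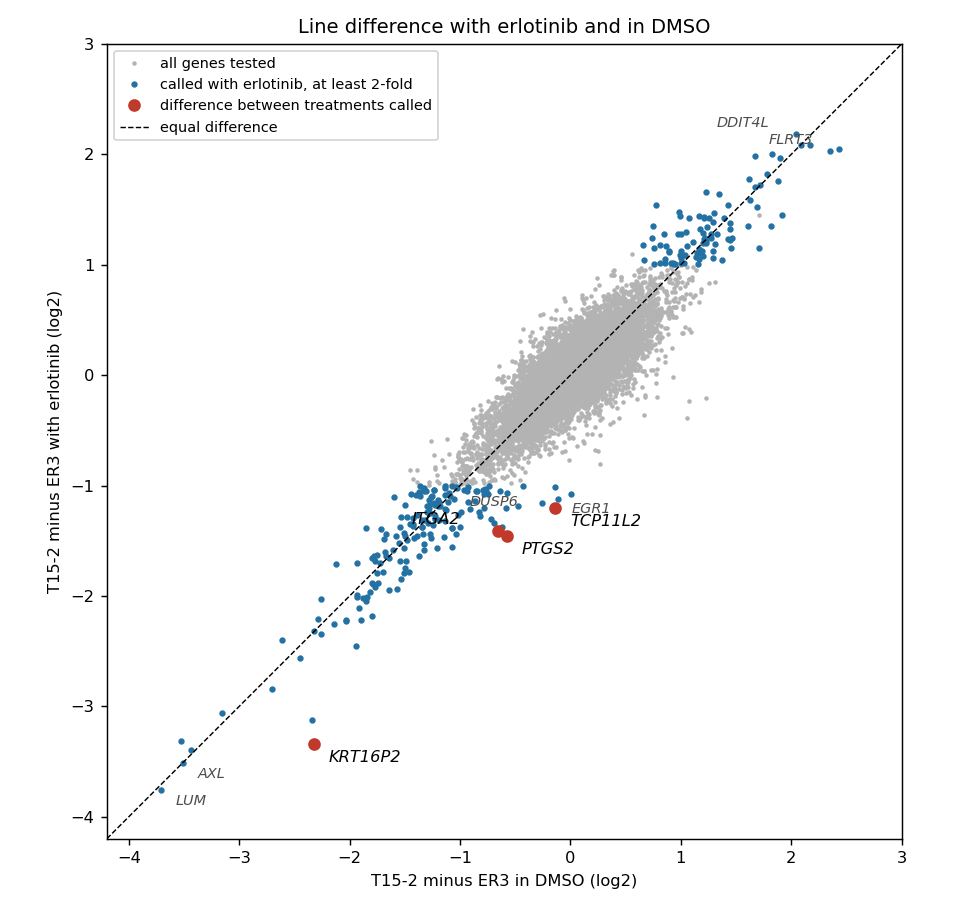
Difference T15-2 minus ER3 in DMSO (log2, x axis) against the same with erlotinib (log2, y axis) for all 11820 genes; blue points are called at least 2-fold with erlotinib and red points have a called difference between treatments. Points follow the dashed line of equal difference, and the 4 red genes, with DUSP6 and EGR1, lie below it.

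The share of called genes varied between chromosomes. On chromosome 6, 265 of 640 genes tested were lower in T15-2 (41.4%) and 28 were higher, with a median difference of -0.26 with erlotinib and -0.28 in DMSO. Chromosome 21 had 45 of 125 genes lower (36%) and 3 higher, with a median of -0.23, and chromosome 1 had 288 of 1193 lower (24.1%), with a median of -0.11. On each other chromosome between 5.11% and 16% of genes were lower in T15-2. On chromosome 6 the median of T15-2 minus HCC827 with erlotinib was -0.00 and that of ER3 minus HCC827 was 0.25, while on chromosome 21 these were -0.22 and -0.00; both use the same HCC827 arrays. Of the genes above, DDR1, MAPK13, ADGRF1, VEGFA, CDKN1A, CCN2, HLA-B, TAP1 and TAP2, all lower in T15-2, lie on chromosome 6. RRAGD, which was higher by 2.08, also lies there, and MX1 lies on chromosome 21. MUC1, F3 and CCN1, which were lower, and NR5A2, which was higher by 1.78, lie on chromosome 1. AXL lies on 19, LUM, ERBB3 and OAS1 on 12 and CDH1 on 16. Whether this chromosomal shift has a part in single differences was not tested.

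**Figure D5:**
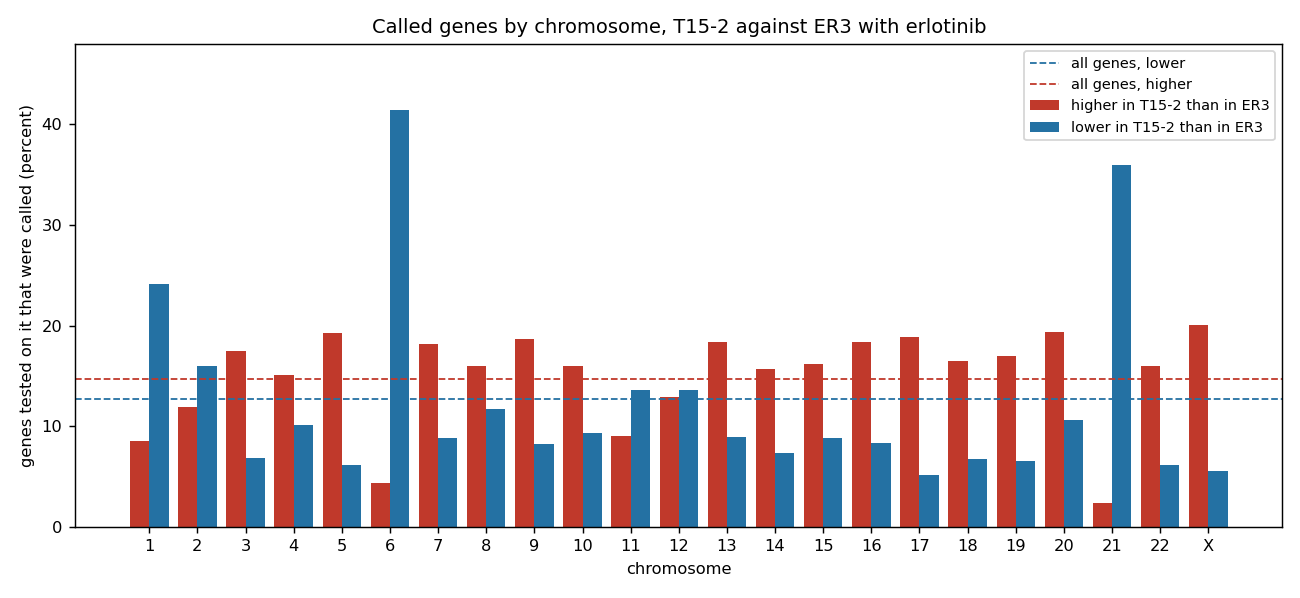
Percent of genes tested on each chromosome (x axis) that were called higher (red) or lower (blue) in T15-2 than in ER3 with erlotinib (y axis); dashed lines give the shares over all genes. Chromosomes 6, 21 and 1 have the highest shares of lower genes.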

How the data were processed

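Total RNA of HCC827, ER3 and T15-2 cells was hybridised to Illumina BeadChips. The authors deposited, per the file headers, a bead signal for each probe (a linear intensity without background subtraction) and its detection p-value. The submitters' processing notes name BeadStudio, with no version. A second deposited table of processed intensity values keeps the ranks of each array, with array medians between 57.69 and 57.71, and served as an alternative; how the authors made it is not stated here.

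The neqc function of the R package limma (version 3.58.1, R 4.3.3) corrected and normalised the signals: negative-control level inferred from detection p-values, offset 16, quantile normalization, log2. A probe was kept if 3 or more of 18 arrays had a detection p under 0.05 (19931 of 48803). Names came from the platform annotation (28093 probes with 1 symbol, 13 with several, 20697 with none), with symbols updated through RefSeq GRCh38.p14, where 28054 identifiers matched. Each gene was represented by its brightest kept probe on average (11820 genes, 3071 with several kept probes, 13 with probes called in opposite directions). Of all probes 4722 were called (23.7%), 2437 higher (12.2%) and 2285 lower (11.5%).

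All 18 arrays entered 1 limma model of 6 group means, and T15-2 minus ER3 with erlotinib, T15-2 minus ER3 in DMSO and their difference were tested with eBayes and Benjamini-Hochberg adjustment over all kept probes. The script was tested on simulated data. Genes were described from a rule: per direction the 14 called genes with the largest difference and no overlap, up to 4 members of each list, the 6 largest treatment differences, and fixed genes. Outside it, CLDN3, CLDN4, CLDN7, TJP1, ESRP1, GRHL2, SPINT1, SPINT2, KRT16, KRT18, NKX2-1, ZEB1, ABCA3, LPCAT1, IFITM3, IFIT2, IRF1, IRF7, IRF9, B2M, FOS, FOSL1, MYC, SPRY2, MERTK, PROS1, ANKRD1, LDHA and PGK1 were chosen after their values were seen. The comparison, members and lists were chosen with earlier results of these data known. Same-numbered arrays of T15-2 and ER3 did not deviate together (correlations 0.103, -0.165 and -0.124), so numbers were not taken as pairs. Alternatives were other background corrections and scalings, probe filters, probe summaries, models and leaving out arrays. Promoter sequences are RefSeq's; those of OAS1 and CDH1 are not shown.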

Additional observations from a re-analysis of the deposited data

Results flagged for a closer look

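The difference between T15-2 and ER3 was larger with erlotinib than in DMSO for 4 genes by a test of that change in limma. PTGS2 differed by -0.89 ± 0.14 between treatments (SE, 3 arrays per group, adjusted p = 0.019), ITGA2 by -0.76 ± 0.13 (adjusted p = 0.0384), KRT16P2 by -1.02 ± 0.15 (adjusted p = 0.019) and TCP11L2 by -1.07 ± 0.17 (adjusted p = 0.019). In each case T15-2 lay further below ER3 with erlotinib. With 3 arrays in a group, no single array was tested as standing apart from its group.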

How the results depend on the processing

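The counts of called genes for T15-2 against ER3 with erlotinib stayed within 1.5 times of 3238 under every alternative run except the test against a 2-fold minimum, which called 117 probes and 83 genes, 19 higher and 64 lower, 83 of them at least 2-fold, with 81 genes in DMSO and 0 for the change between treatments. Genes at 2-fold numbered 134 in place of 259 with no background correction and 134 with the authors' processed values; the cause was not tested. The split of calls was 1610 higher and 1443 lower with median scaling. The change between treatments, called for 4 genes, was called for 2 with median scaling, for 0 with only the compared groups fitted (767 at an unadjusted p below 0.05) and for 0 to 14 when 1 array was left out. The 14 were reached without ER3 DMSO replicate 3. With the replicate number as a block, 1643 genes were higher and 1441 lower and the change was called for 3, where ITGA2 had an adjusted p of 0.0774 (limma). Only arrays of T15-2 against ER3 were checked for pairing, and same-numbered ones did not deviate together. Arrays of 1 subline were not checked for pairing between treatments. In the block fit all 259 genes at 2-fold were called again, and 3046 genes were called in both fits. With 1 of the 6 erlotinib arrays left out, 21 to 22 epithelial, 22 to 26 interferon-stimulated, 13 to 15 MAPK and 8 to 10 MHC class I genes were lower, and 7 to 12 DNA replication genes were higher. VIM was called under 6 alternatives, at 0.32 without ER3 erlotinib replicate 1 (adjusted p = 0.0143), and MT1X lost its call without that array. No value named in the text turned its sign past the test. A block for the BeadChip could not be run without knowing the chip of each array. The number of arrays limits small differences, and probes near background give bounds.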

Other observations

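For the lists that follow, the shares over all genes were 27.4% called, 14.7% higher and 12.7% lower. Eph receptors and ephrins, which guide contact between cells, were split, with 4 of 14 higher and 4 lower in T15-2 than in ER3 with erlotinib (1 to 3 lower when an array was left out). EFNB3 was higher by 0.67 ± 0.14 and EPHA2 lower by -0.75 ± 0.12. Of 12 aldehyde dehydrogenases 4 were higher (2 to 4 when an array was left out) and 1 was lower, and of 14 chaperone genes 5 were higher and 1 was lower, led by the mitochondrial co-chaperonin HSPE1 (0.64 ± 0.11). Of 16 targets of the oxidative stress factor NRF2, 0 were higher and 5 were lower (31.2% called, near all genes), among them NQO1 (-0.61 ± 0.09). Of 20 integrin, laminin and basement membrane collagen genes 1 was higher and 5 were lower (30% called, near all genes). The laminin chain LAMB3 was lower by -1.18 ± 0.13. TGFBR2, a receptor of TGF-beta, was higher in T15-2 (0.72 ± 0.10), and the cytokine gene IL6 was higher (0.64 ± 0.13) while the chemokine gene CXCL8 was lower (-0.78 ± 0.14).

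Neighbouring genes moved together in some places. In windows of 11 tested genes in chromosome order, the largest median on the higher side was 0.60 for the run from PKIA to FABP5 on chromosome 8, with 7 of 11 called higher in T15-2. The run from RPL11 to RCAN3 on chromosome 1 had a median of -0.55 with 7 called lower, and the run from RPL28 to U2AF2 on chromosome 19 had 0.54 with 8 called higher. Many other runs with large medians lay on chromosome 6, such as SH3BGRL2 to RWDD2A (-0.46, 9 called lower and 1 higher). On chromosome 21 the run from PAXBP1 to CRYZL1 had -0.42 with 10 called lower. Over all genes 14.7% were called higher and 12.7% lower. The windows were ranked by the size of their median, and no test was made. Of the 4172 kept probes without a single gene name, 630 were called between T15-2 and ER3 with erlotinib, 35 of them at least 2-fold. Over all 19931 kept probes, 4722 were called (23.7%).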
